A study of Homo sapiens with 4 samples.

Results

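Tight junction genes were followed in TPC1 cells, a human papillary thyroid carcinoma line with a CCDC6-RET fusion, between 6 and 24 h of exposure to the selective RET inhibitor BLU6864. The genes are CLDN1, CLDN2, CLDN4, CLDN7, CLDN12, OCLN, TJP1, F11R, and CGN, 9 of the 20372 genes in the deposited table, of which 12876 had enough reads to be tested. They were chosen by name as parts of the tight junction, and the choice was made with their counts at 24 h and at 6 h in these same libraries known. Those counts are therefore described without a test.

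The study asked how thyroid cancer cells with a RET fusion adapt to loss of RET signaling. TPC1 cells in DMEM with FBS received BLU6864 for 6 h (2 libraries) or for 24 h (2 libraries), and total RNA was sequenced. The labels give a dose of 100 µM for every library, whereas the methods of the study state it in nanomolar units. The 6 h libraries held 23917056 and 26829072 counts and the 24 h libraries 26486456 and 27457040. No untreated library was analysed here, so each difference is one between 2 times of treatment. The 24 h libraries carry the word re-analysis in their titles and the 6 h libraries do not, so time and whatever that word marks cannot be told apart. The labels do not say that the libraries of a time came from separate cultures, and P values measure only the spread between these libraries.

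Tight junctions seal the space between neighboring epithelial cells just below their apical surface. Claudins polymerize into the strands of the junction and set which ions and small solutes pass, and occludin and junctional adhesion molecules lie in or beside the same strands. Scaffold proteins under the membrane, among them ZO-1 and cingulin, tie the strands to actin, and in the thyroid these junctions close the follicle so that colloid stays apart from the blood side.

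The cell type was checked against marker genes. PAX8, a transcription factor of the thyroid lineage, had means of 21345 ± 990 (SD, n = 2) and 20519 ± 790 normalized counts at 6 h and 24 h, where a normalized count is the raw count scaled to the same effective library size. TSHR and NKX2-1, which also define follicular cells, had no count in any library, which allows at most 0.125 CPM (raw counts relative to the library total). The epithelial keratin KRT8 was present (1797 ± 90.1 and 1738 ± 34.5), as was the mesenchymal filament gene VIM (55504 ± 2672 and 52388 ± 3891). CDH1, which encodes E-cadherin, had raw counts of 8 and 3 at 6 h and 1 and 3 at 24 h. The thyroid label thus rests here on PAX8 and on less abundant genes such as FOXE1 and TG, and E-cadherin transcripts were close to the limit of detection.

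CLDN1 was the most abundant claudin at both times and was higher at 24 h. CLDN2 was near the limit of detection at 6 h and was plainly present at 24 h, and OCLN was moderately higher at 24 h. CLDN12, F11R, and TJP1 were lower at 24 h by smaller amounts. CLDN4 and CLDN7 had few reads at both times, and CGN did not separate the times. In these bulk libraries, a change in the number of cells that express a gene and a change in RNA per cell cannot be told apart.

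On the log2 scale, the ratio of the mean normalized count at 24 h to that at 6 h exceeded 0.5 in 3 of the 9 genes and was under -0.5 in 2, with a median of -0.24. Among all genes tested, 17.4% were called higher and 17.7% lower, a call being an edgeR log2 fold change beyond 0.5 in either direction with an unadjusted P under 0.01. The counts of the 9 genes use the ratio without a P, so they and these shares do not follow the same rule. Both 24 h libraries lay above both 6 h libraries in 3 of the 9 genes and below them in 5, and the same held for 41.0% and 40.8% of all genes tested. Because the 9 genes were picked with this contrast known, nothing is read from these shares. Over all tested genes, the median log2 fold change was 0.0029. Of the 9, 8 passed the filter on low counts. CLDN2 passed only through its 24 h libraries and CLDN7 only through its 6 h libraries, and CLDN4 did not pass.

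**Figure D1:**
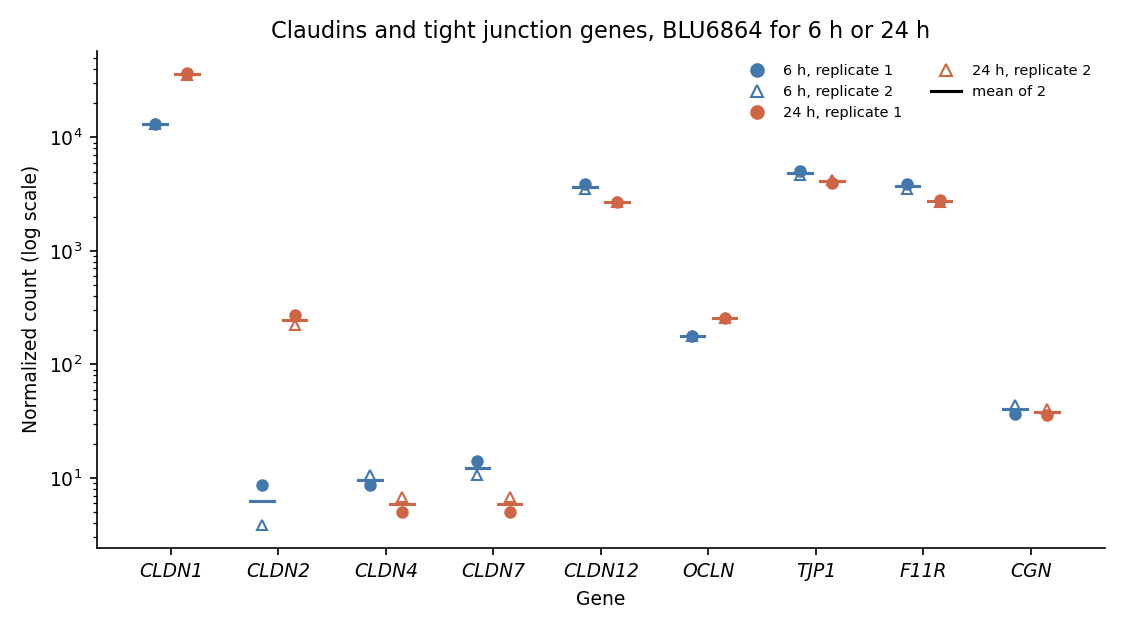
Normalized counts (log scale) of the 9 tight junction genes in each library, with replicate 1 as filled circles, replicate 2 as open triangles, and lines at the mean of 2. CLDN1, CLDN2, and OCLN are higher at 24 h, and CLDN4 and CLDN7 stay at 14.0 or less in every library.

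Claudin-1 is a barrier-forming claudin found in many epithelia and in papillary thyroid carcinoma. CLDN1 had 12100 and 13628 raw counts at 6 h and 36743 and 36344 at 24 h. The groups did not overlap, and the libraries within each time were close together. After normalization the 6 h mean was 13068 ± 8.78 (SD, n = 2) and the 24 h mean 35987 ± 876, a 2.75-fold ratio, or 1.46 on the log2 scale. CLDN1 lies on chromosome 3 at positions 190023490 to 190040264 in the hg19 build of the deposited table.

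CLDN1 dominated the claudin transcripts, and did so more at 24 h. Of the counts on the 5 claudins among the 9 genes, CLDN1 held 77.0% and 78.8% at 6 h and 92.5% and 92.3% at 24 h. CLDN12 held most of the remainder, 22.9% and 21.0% at 6 h and 6.80% and 7.08% at 24 h. The summed level of the 5 claudins was 649 and 634 CPM at 6 h and 1513 and 1465 at 24 h. For this sum, CPM was taken relative to the effective library size and not to the library total. CLDN12 was lower at 24 h, so the higher sum was carried by CLDN1 and, in small part, by CLDN2.

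The window of bases just upstream of the CLDN1 start is shown because CLDN1 carried most of the claudin counts. It is chr3:190322447-190322696 in GRCh38.p14, given 5′ to 3′ on the reverse strand, from RefSeq. Promoter entries were matched by symbol for 8 of the 9 genes, with 14 windows of 250 bases that end at an annotated start. Capitals mark the letters of 3 motifs, each searched on both strands. They were CAGGTG, the E-box that SNAI and ZEB factors bind, TGANTCA, a loose form of the AP-1 site, and TTCNNNGAA, the site of STAT factors. N stands for any base, whereas the usual AP-1 site has C or G in the middle.
CLDN1: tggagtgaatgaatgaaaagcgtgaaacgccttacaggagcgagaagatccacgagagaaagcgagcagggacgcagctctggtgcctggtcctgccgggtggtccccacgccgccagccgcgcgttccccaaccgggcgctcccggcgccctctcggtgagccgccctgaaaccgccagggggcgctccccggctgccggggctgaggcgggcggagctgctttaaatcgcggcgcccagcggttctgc
The CLDN1 window held none of these letters. It had 2 copies of the GC box GGGCGG, which 42.6% of the 35116 windows in the table contain, and its GC content was 68.8%.

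Claudin-16, which is known for its part in magnesium and calcium reabsorption in the kidney, is encoded next to CLDN1 on the other strand. The deposited table leaves a gap of 65 bases between the intervals of CLDN1 and CLDN16, and in GENCODE v44 on hg38 94 bases lie between the outermost starts, head to head, with 0 shared exon bases. The transcript that starts there carries no annotated coding sequence, and the reference transcript of CLDN16 begins 65717 bases from the CLDN1 start. RefSeq has no CLDN16 window beside CLDN1 but gives chr3:190290111-190290360 and chr3:190387913-190388162 in GRCh38.p14, and a transcript from the former would run across CLDN1 on the other strand. CLDN16 had 192 and 195 raw counts at 6 h and 1575 and 1505 at 24 h. Both 24 h libraries were far above both 6 h libraries. CLDN16 rose by 2.95 on the log2 scale (standard error 0.0949), and the adjusted P was 6.46e-20 by the edgeR quasi-likelihood test after Benjamini-Hochberg adjustment. CLDN16 is not one of the 9 genes and came from the list of other claudins.

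**Figure D2:**
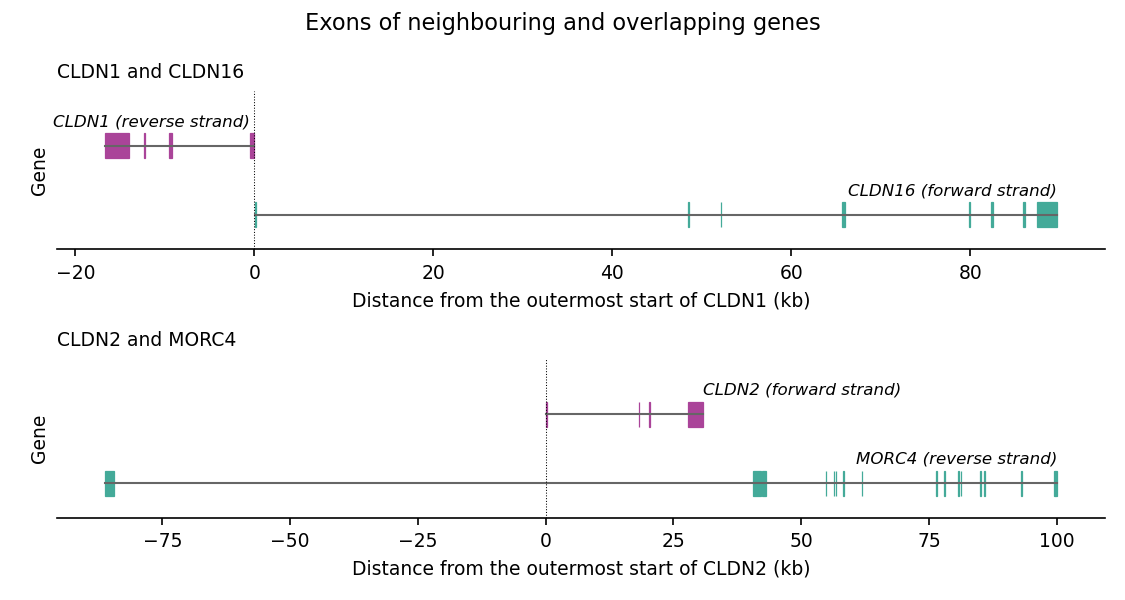
Exons (boxes) of CLDN1 with CLDN16 and of CLDN2 with MORC4 in GENCODE v44, by distance in kb from the outermost start of CLDN1 or CLDN2, drawn to scale. Between the outermost starts of CLDN1 and CLDN16 lie 94 bases, and no exon of CLDN2 meets an exon of MORC4.

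Claudin-2 forms pores for small cations and water and is typical of leaky epithelia. CLDN2 had 8 and 4 raw counts at 6 h and 271 and 229 at 24 h. The exact Poisson 95% intervals, which cover counting error only, were 3.45 to 15.8 and 1.09 to 10.2 at 6 h and 240 to 305 and 200 to 261 at 24 h. The 6 h mean was 6.24 ± 3.39 normalized counts (SD, n = 2) and the 24 h mean 246 ± 33.3, a 39.5-fold ratio with a counting interval of 22.9 to 78.7. On the log2 scale the ratio was 5.30. Each 6 h library weighed on that value, which was 6.00 without 6 h replicate 1 and 4.83 without 6 h replicate 2.

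CLDN2 lies on chromosome X at positions 106143394 to 106174091 (hg19), and 100% of that interval falls inside the interval of MORC4, a gene of the MORC family of chromatin ATPases. In GENCODE v44 the genes are on opposite strands and share 0 exon bases. MORC4 had 488 and 529 raw counts at 6 h and 787 and 772 at 24 h. The groups did not overlap. MORC4 rose by a log2 fold change of 0.57 (standard error 0.0864), with an adjusted P of 2.13e-06 by the edgeR quasi-likelihood test after Benjamini-Hochberg adjustment. It is labeled in the study's heatmap of genes picked from these libraries among others. The study picked genes that fell with BLU6864, rebounded as resistance developed, and were sensitive to added BGJ398, an FGFR inhibitor. The methods point to a stranded kit, but the strand setting of the counting is not given in the sources used here, so reads of the introns of one gene that fall on exons of the other cannot be told apart. RIPPLY1, which also overlaps CLDN2, had no raw count except 2 in 24 h replicate 1.

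The RefSeq table gives CLDN2 starts at the end of 2 windows, and the counts do not tell which start was used. The outermost window, chrX:106899914-106900163 in GRCh38.p14 on the forward strand, is shown because CLDN2 had the largest ratio of the 9 genes.
CLDN2: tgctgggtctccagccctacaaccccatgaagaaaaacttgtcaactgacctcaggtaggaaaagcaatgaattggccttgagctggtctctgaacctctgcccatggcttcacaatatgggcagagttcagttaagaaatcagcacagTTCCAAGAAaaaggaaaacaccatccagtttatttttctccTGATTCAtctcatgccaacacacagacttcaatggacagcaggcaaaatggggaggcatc
It held TGATTCA, a match to the loose AP-1 letters, at -60 from the start and TTCCAAGAA, a STAT site, at -101, and they do not overlap. The middle base of TGATTCA is T, so it is not the usual AP-1 site. The loose letters TGANTCA occurred in 6.57% of the 35116 windows and the STAT letters likewise in 6.57%. The other CLDN2 window held none of the motifs searched. A match describes the letters and not the binding of a factor.

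Patterns over the 4 libraries were compared among the 11389 genes with a mean of at least 50 normalized counts. Those most like CLDN2 were C4BPA, IFITM1, and BST2, at Euclidean distances of 0.378, 0.411, and 0.542 in centered log2 CPM. Counts of CLDN2, C4BPA, and IFITM1 were low at 6 h, so these distances depend in part on the small count added before taking logs. C4BPA, which encodes a chain of a complement inhibitor, had 3.24 and 0 normalized counts at 6 h and 112 and 96.3 at 24 h. IFITM1, which encodes a membrane protein that restricts viral entry, had 15.1 and 5.76 at 6 h and 292 and 281 at 24 h. BST2, which encodes tetherin, had 23.7 and 18.2 at 6 h and 585 and 501 at 24 h.

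Claudin-4 tightens many epithelia and claudin-7 lies largely on lateral membranes, and both genes were barely detected in TPC1 cells. CLDN4 had 8 and 11 raw counts at 6 h and 5 and 7 at 24 h. Its log2 ratio was -0.70, with a counting interval of -1.88 to 0.41. CLDN7 had 13 and 11 raw counts at 6 h and 5 and 7 at 24 h. The log2 ratio was -1.06, with a counting interval of -2.18 to 0.01. These genes were the 2 with a ratio under -0.5. That number was 1 without 24 h replicate 1, where CLDN4 was at -0.49, and 4 without 6 h replicate 2, where CLDN12 and F11R were at -0.53 and -0.51.

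CLDN4 lies on chromosome 7 at positions 73213872 to 73247014 and CLDN7 on chromosome 17 at 7163222 to 7167302 (hg19). CLDN7 overlaps ELP5 by 38 bases at its 3′ end, on the opposite strand in GENCODE v44. ELP5, which encodes a subunit of the Elongator complex, had 1102 and 1417 raw counts at 6 h and 1155 and 1038 at 24 h. With a log2 fold change of -0.24, ELP5 was not called. How many of the few CLDN7 counts fell on the shared bases is not known. RP1-4G17.5, which overlaps CLDN7 on the same strand, had no count in any library.

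One of the CLDN7 windows, chr17:7262479-7262728 in GRCh38.p14 on the reverse strand, is shown for the number of E-boxes in it.
CLDN7: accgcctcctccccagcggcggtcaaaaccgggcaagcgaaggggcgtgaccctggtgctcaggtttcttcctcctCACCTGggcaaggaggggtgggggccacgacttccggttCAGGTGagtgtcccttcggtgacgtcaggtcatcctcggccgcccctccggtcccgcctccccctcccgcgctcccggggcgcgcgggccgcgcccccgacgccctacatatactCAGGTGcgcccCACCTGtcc
The letters CAGGTG or their reverse complement CACCTG occur 4 times, at -174, -135, -20, and -9 from the start. Of the 35116 windows, 17.5% held at least 1 copy and 0.122% held at least 4. The other CLDN7 window held none, each of the 2 OCLN windows held 1, and of the 4 TJP1 windows 1 held 1. The CLDN1, CLDN2, CLDN4, CLDN12, and CGN windows held no CAGGTG. The CLDN4 window instead held 2 matches to TGANTCA, which were TGATTCA at -242 and TGACTCA at -161 from the start. Of the 2, TGACTCA alone has the middle base of the usual AP-1 site. The CLDN12 window held 1 STAT site.

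Claudin-12 is an unusual claudin without the tail motif that binds the PDZ domains of ZO proteins. CLDN12 had 3595 and 3637 raw counts at 6 h and 2700 and 2788 at 24 h. Both 24 h libraries were below both 6 h libraries, by more than the spread within each time. Normalized means were 3685 ± 277 (SD, n = 2) and 2702 ± 16.4, so that 24 h stood at 73.3% of 6 h (log2 ratio -0.45). The interval of CLDN12 on chromosome 7, 90013035 to 90142716 in hg19, overlaps those of CDK14 by 36.2% of its length and of GTPBP10 by 5.96%, all on the forward strand in GENCODE v44. CDK14, which encodes a cyclin-dependent kinase, had 405 and 406 raw counts at 6 h and 195 and 206 at 24 h. It fell by 1.06 on the log2 scale (standard error 0.112), with an adjusted P of 4.44e-09 by the edgeR quasi-likelihood test after Benjamini-Hochberg adjustment. GTPBP10, a gene for a mitochondrial ribosome assembly factor, had 457 and 515 counts at 6 h and 504 and 481 at 24 h, and its libraries overlapped. CLDN12 shares 201 exon bases with CDK14 and 347 with GTPBP10, so a part of its counts is uncertain.

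CLDN12 had the lowest ratio among those of the 9 genes with a mean of at least 50 normalized counts. The genes nearest to it in pattern were TOP1, DGKA, and CDK19, at distances of 0.0126, 0.0174, and 0.0207. Each had a log2 fold change of -0.43. These neighbors are not distinctive, since 4912 of the 11389 genes, many of them with little change, lay within a distance of 0.5 of CLDN12.

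Occludin is the tetraspan partner of claudins in the strand, and F11R encodes JAM-A, an adhesion molecule of the immunoglobulin superfamily. OCLN had 164 and 186 raw counts at 6 h and 258 and 261 at 24 h. The libraries of each time were almost equal after normalization, at 178 ± 0.994 (SD, n = 2) and 256 ± 2.16. The ratio was 1.44-fold, and its log2 value of 0.52 had a counting interval of 0.32 to 0.72. It was just inside the limit of 0.5, and scaling by library size alone put it just outside, at 0.48. OCLN lies on chromosome 5 at positions 68788119 to 68853931 (hg19). GENCODE v44 also annotates OCLNP1, an unprocessed pseudogene of it, so the share of its reads that was assigned uniquely is uncertain.

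F11R had 3622 and 3628 raw counts at 6 h and 2796 in each of the 24 h libraries. Both 24 h libraries were lower. The normalized means of 3695 ± 304 (SD, n = 2) and 2753 ± 45.8 gave a log2 ratio of -0.42, close to that of CLDN12. F11R lies on chromosome 1 at positions 160965001 to 160991138 (hg19). The gene RP11-544M22.13 overlaps 89.5% of that interval and had 3 or fewer counts in every library. In GENCODE v44 it shares 1853 exon bases with F11R on the same strand, which are 36.6% of the exon bases of F11R. How reads on these bases were counted is not known, so the level of F11R is uncertain. Over the 9 genes, 7 genes overlapped a tight junction gene and 4 of these were tested. Of the 4, MORC4 rose and CDK14 fell, beside 17.4% called higher and 17.7% lower of all genes tested.

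TJP1 encodes ZO-1, the scaffold that binds claudin and occludin tails and links them to actin. TJP1 had 4645 and 4857 raw counts at 6 h and 3949 and 4355 at 24 h. The 24 h libraries were below the 6 h libraries by a small margin, with normalized means of 4837 ± 251 (SD, n = 2) and 4086 ± 215 and a log2 ratio of -0.24. CGN encodes cingulin, which joins ZO-1 to the actomyosin ring. CGN had 34 and 46 raw counts at 6 h and 36 and 42 at 24 h. Its libraries overlapped, and the log2 ratio of -0.08 had a counting interval of -0.55 to 0.39. TJP1 lies on chromosome 15 at positions 29991571 to 30261068 and CGN on chromosome 1 at 151482986 to 151511168 (hg19).

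To compare genes with each other, CPM values were taken here relative to the effective library size. They were divided by the length in kilobases of each gene's reference transcript in GENCODE v44. At 6 h the order was CLDN1 (145), CLDN12 (39.9), F11R (30.5), TJP1 (25.7), OCLN (1.10), CLDN7 (0.305), CGN (0.303), CLDN4 (0.216), and CLDN2 (0.0805). At 24 h it was CLDN1 (399), CLDN12 (29.2), F11R (22.7), TJP1 (21.7), CLDN2 (3.18), OCLN (1.58), CGN (0.288), CLDN7 (0.146), and CLDN4 (0.133). CLDN2 thus moved from the last place to the fifth, above OCLN. Neighbors whose libraries overlapped were CLDN7 and CGN at 6 h, and F11R with TJP1 and CLDN7 with CLDN4 at 24 h. CLDN12 and F11R trade places at both times if all annotated exon bases are taken as the length, since CLDN12 then stands at 21.0 and 15.4 and F11R at 27.9 and 20.8. The level of CLDN16 on the transcript scale was 2.53 at 6 h and 19.5 at 24 h, which put it at 24 h between TJP1 and CLDN2.

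**Figure D3:**
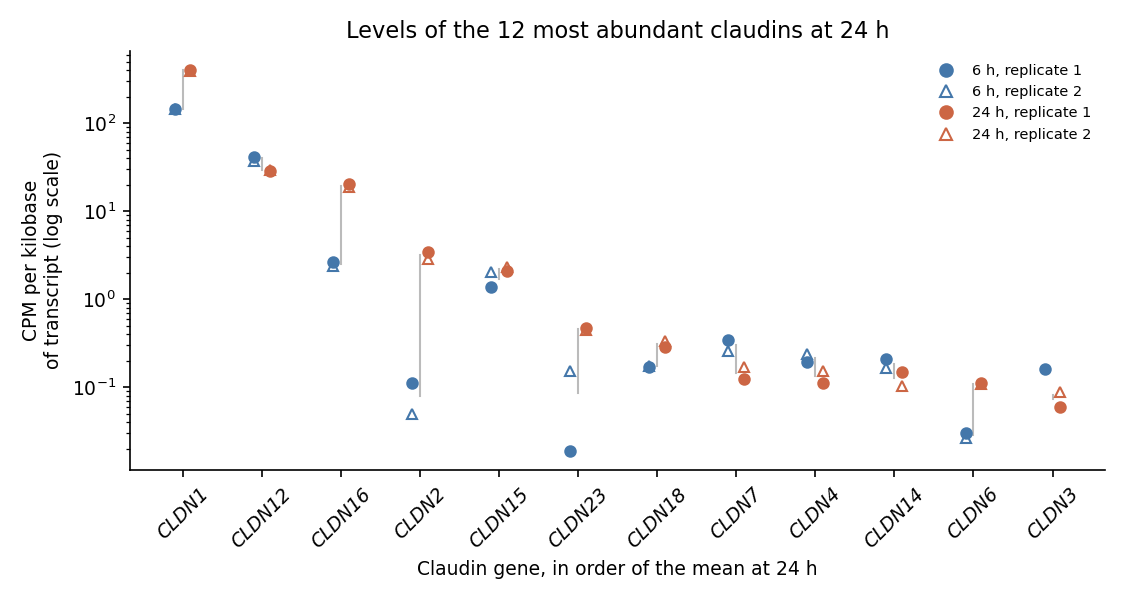
Level of each of the 12 most abundant claudins at 24 h in CPM (relative to the effective library size) per kilobase of transcript (log scale), by library, with gray lines between the means of each time. CLDN1 leads at both times, CLDN16 and CLDN2 reach 19.5 and 3.18 at 24 h, and a library at 0 is not drawn.

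The remaining parts of the tight junction were read from a list of 59 genes, of which 58 are in the table and 37 were tested. Of these, 12 rose (32.4%), 1 fell, and 24 had no call, beside 17.4% called higher and 17.7% lower over every gene tested. The median log2 fold change was 0.28, and 0.0029 over every gene tested. The list was made with earlier results of these data known, so its count is a description. Of the 18 other claudins in the table, 4 were tested, and CLDN16 and CLDN23 rose while CLDN15 and CLDN18 had no call. CLDN23 had 1 and 9 raw counts at 6 h and 27 and 26 at 24 h (log2 fold change 2.33, standard error 0.487). That value was 1.58 without 6 h replicate 1 and 4.44 without 6 h replicate 2, and CLDN23 passed the filter on low counts only through its 24 h libraries. CLDN17, CLDN22, and CLDN25 had no count in any library. Thus most of the claudin family was at or near the limit of detection at both times.

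Among 12 other transmembrane proteins of the junction, 7 were tested and 2 rose, beside 17.4% called higher of all genes tested. CRB3, which encodes an apical polarity protein of the Crumbs complex, had 16 and 22 raw counts at 6 h and 105 and 96 at 24 h (log2 fold change 2.35, standard error 0.240). ILDR2, which encodes an angulin of tricellular contacts, had 548 and 613 at 6 h and 945 and 889 at 24 h (0.61, standard error 0.0845). CXADR, a JAM-like adhesion receptor and the most abundant of these genes, was not called (log2 fold change -0.10). CRB3 and ILDR2 lie outside the claudin, occludin, and JAM families, but this list held neither claudins nor OCLN. In it, MARVELD2, MARVELD3, and JAM3 were not tested, and JAM2 was not called (-0.05).

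Among 28 other plaque and polarity proteins, 26 were tested, 8 rose, and 1 fell, beside 17.4% called higher and 17.7% lower of all genes tested. The angiomotins, which link junctions to actin and bind YAP, rose together. AMOTL2 had 641 and 720 raw counts at 6 h and 3475 and 3590 at 24 h (log2 fold change 2.33, standard error 0.0745). AMOT rose by 1.23 (standard error 0.0882) and AMOTL1 by 1.03 (standard error 0.0869). PARD3, a core polarity scaffold, had 2023 and 2114 counts at 6 h and 5181 and 5081 at 24 h (log2 fold change 1.26, standard error 0.0731). Its relative PARD3B rose by 1.57 (standard error 0.181). YBX3, which encodes the ZO-1 binding factor ZONAB, rose by 0.60 (standard error 0.0727).

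MICALL2, which encodes a partner of RAB13 in occludin recycling, was the gene that fell, from 713 and 892 counts at 6 h to 293 and 331 at 24 h (log2 fold change -1.41, standard error 0.0960). RAB13 itself, the most abundant plaque gene, was not called (0.20). TJP3, a relative of TJP1, was not called either (0.48). CGNL1, the relative of CGN, was called at 0.51, as was ARHGEF18, also at 0.51. These genes sat at the limit of 0.5 and lost the call when libraries were scaled by size alone (0.46 and 0.47), without 24 h replicate 2 (0.38 and 0.44), or without 6 h replicate 1 (0.44 and 0.43). TJP3, CGNL1, and ARHGEF18 were singled out after their values were seen.

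**Figure D4:**
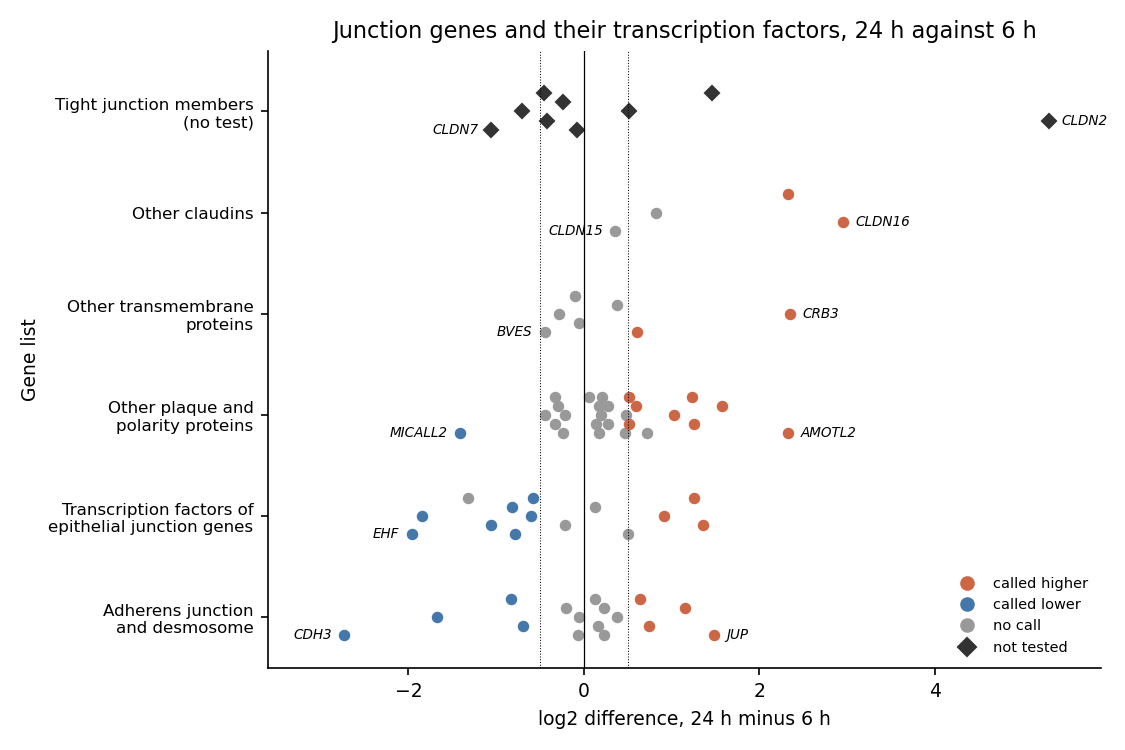
The log2 difference between 24 h and 6 h for the 9 tight junction genes (diamonds, log2 ratios without a test) and for tested genes of the other lists (circles, edgeR log2 fold changes), with dotted lines at 0.5 and -0.5 and some of the outermost genes named. Of the other tight junction genes 12 are called higher and 1 lower, and CLDN2 lies furthest to the right at 5.30.

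Transcription factors known to repress or activate epithelial junction genes moved in both directions. Of 21 listed, 14 were tested, 3 rose and 7 fell, beside 17.4% and 17.7% of all genes tested, with a median log2 fold change of -0.59. SNAI1 and SNAI2, repressors that bind E-boxes in CDH1, CLDN1, and OCLN, rose. SNAI1 had 81 and 93 raw counts at 6 h and 207 and 222 at 24 h (log2 fold change 1.26, standard error 0.145), and SNAI2 had 281 and 296 at 6 h and 561 and 558 at 24 h (0.91, standard error 0.0979). SNAI2 is also labeled in the study's heatmap of picked genes.

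The repressors of the ZEB and TWIST families fell. ZEB1 had 2895 and 2968 raw counts at 6 h and 2177 and 1815 at 24 h (log2 fold change -0.60, standard error 0.0827). Without 24 h replicate 2 the value was -0.45 and no longer a call. ZEB2 fell by 0.58 (standard error 0.0756) and TWIST1 by 1.06 (standard error 0.164). KLF4, an activator of epithelial genes, fell from 518 and 566 counts to 152 and 160 (-1.84, standard error 0.109). EHF (-1.96) and KLF5 (-0.78), also epithelial factors, fell from lower counts, and EHF passed the filter on low counts only through its 6 h libraries. GRHL2, OVOL1, TFCP2L1, CDX2, and GATA4 had no count in any library. The known E-box repressors thus did not move as one group, with SNAI1 and SNAI2 up and ZEB1, ZEB2, and TWIST1 down.

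Adherens junction and desmosome genes served as the neighboring junction types. Of 24 listed, 16 were tested, 4 rose and 4 fell, beside 17.4% and 17.7% of all genes tested, and the median log2 fold change was 0.14. JUP, which encodes plakoglobin of both junctions, rose from 1803 and 2048 counts to 5106 and 5983 (log2 fold change 1.48, standard error 0.0770). PVRL3, which encodes nectin-3, rose by 1.15 (standard error 0.0727), CTNND1 by 0.74 (standard error 0.0741), and PKP2 by 0.64 (standard error 0.208). PKP2 was no longer called without 24 h replicate 1 (0.46), without 6 h replicate 2 (0.49), or by DESeq2 (0.63). CDH3, which encodes P-cadherin, fell from 18 and 22 counts to 5 and 1 (-2.73, standard error 0.551), and its value was -4.21 without 24 h replicate 1 and -1.99 without 24 h replicate 2. PVRL4 (-1.67), PKP4 (-0.83), and DSG2 (-0.69) also fell, and PVRL4 lost its call without 24 h replicate 2 (-1.33). At 24 h neither CDH3 nor PVRL4 reached the filter on low counts in both libraries, so they were tested through their 6 h libraries. CTNNB1, the most abundant of the list, was not called (0.13). Beside E-cadherin, EPCAM, which binds claudin-7 in many epithelia, was near the limit of detection, with 11 and 6 counts at 6 h and 1 in each 24 h library.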

How the data were processed

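Per the labels, TPC1 RNA libraries were made with the Illumina TruSeq RNA protocol, and the methods refer back to a stranded TruSeq kit. The authors aligned reads to hg19 with STAR (2.3 in the submitters' processing notes, a later version in the methods) and deposited a raw count per gene. They also deposited a normalized signal, each count divided by a DESeq2 size factor per library, with its mean; these were read to check the counts and were not tested. Deposited columns that hold the authors' own comparison of the times (log2 fold change, its error, p-values) were not used. The labels state single-end reads and the methods paired-end reads.

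Counts were filtered with filterByExpr, normalized by TMM, and tested with edgeR 4.0.16 (quasi-likelihood test, time as the single factor) in R 4.3.3, with DESeq2 1.42.0 as an alternative. The filter kept 12876 genes with 99.97% of the counts. Calls used the sizes of the cutoffs in the methods, which state the log2 fold change in the downward direction. Here they were taken in both directions, a log2 fold change beyond 0.5 and an unadjusted P under 0.01, with Benjamini-Hochberg adjusted P beside them. Standard errors were derived from the fold change and the F statistic. The fit was tested on simulated data. A normalized count is the raw count over the effective (TMM) library size, multiplied by the mean effective size. Intervals of a ratio are exact binomial 95% intervals and cover counting error only. The common biological coefficient of variation was 0.0521, and replicates differed by more than sampling noise (chi-square per degree of freedom 8.66 at 6 h and 6.67 at 24 h).

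The 9 genes, the lists, and the motifs were chosen with earlier results of these data known. Genes were named by rule: the 9, up to 6 called genes of a list per direction by smallest P, the most abundant gene of a list, and genes that overlap the 9 or resemble them most. Some genes that the rule names are not reported here. Alternatives were other scalings, filters, and cutoffs, DESeq2, the replicate number as a block, and each library left out. Promoter windows came from RefSeq on GRCh38.p14 and strands, exons, and lengths from GENCODE v44 on hg38. Positions from hg19 and hg38 were not mixed. Marker lists covered thyroid follicular cells, simple epithelium, fibroblasts and mesenchyme, endothelial cells, and white blood cells.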

Additional observations from a re-analysis of the deposited data

How the results depend on the processing

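The log2 ratios of CLDN1 (1.42 to 1.49), CLDN2 (4.83 to 6.00), CLDN12 (-0.53 to -0.37), F11R (-0.51 to -0.34), TJP1 (-0.30 to -0.18), OCLN (0.48 to 0.55), CLDN4 (-0.94 to -0.49), and CLDN7 (-1.30 to -0.84) kept their sign in every alternative that gave a value, and that of CGN did not (-0.20 to 0.06). CLDN4 did not pass the filter and had no value with the replicate number as a block. Other scalings, filters, and DESeq2 divide the same counts by slightly different library sizes, so they shift these ratios only a little. The number of the 9 genes under -0.5 ranged from 1 to 4 with a library left out, and the number of other tight junction genes called lower from 1 to 2, the latter without 24 h replicate 2. An adjusted P under 0.05 without a cutoff on the fold change, which admits smaller changes by construction, gave 19 other tight junction genes higher and 7 lower, 2 overlapping genes lower, and 4247 genes higher and 4196 lower over the whole table. With at least 10 counts required in every library, 2 adherens junction and desmosome genes were called lower, since CDH3 and PVRL4 were then not tested. TWIST2, the seventh transcription factor that fell, called at -0.82, lost the call by DESeq2 and without 24 h replicate 1 (-0.55). The replicate numbers are not stated to pair libraries, and deviations of same-numbered libraries had a correlation across genes of 0.0844. With the number as a block, 2283 genes were called higher and 2313 lower, against 2238 and 2278, and the other tight junction genes called higher numbered 13. With a library left out, the lone library of its time is assumed to vary like the other pair. Depth limits CLDN4, CLDN7, CGN, and the 6 h value of CLDN2.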

Other observations

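Markers of other cell types were read in the same fit, in which 17.4% of all genes tested were called higher and 17.7% lower. Of 8 endothelial genes, 7 are in the table and 4 were tested, and 3 fell. Their summed level was 39.2 and 39.0 CPM at 6 h and 5.78 and 4.70 at 24 h. KDR, which encodes a receptor for VEGF, fell from 485 and 517 raw counts to 44 and 22 (log2 fold change -3.97, standard error 0.172). TIE1 fell from 418 and 500 to 92 and 89 (-2.38, standard error 0.125). VWF fell from 16 and 11 to 3 and 5 (-1.77, standard error 0.557), and it passed the filter on low counts only through its 6 h libraries. CDH5, which defines endothelial cells, had 1 or 0 counts in each library, as did CLDN5, the endothelial claudin.

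Of 12 thyroid genes, 7 were tested, with summed levels of 831 and 888 CPM at 6 h and 789 and 825 at 24 h. FOXE1 rose from 273 and 279 counts to 462 and 556 (log2 fold change 0.84, standard error 0.107), and DUOX1 from 43 and 38 to 75 and 89 (0.97, standard error 0.215). TG fell from 186 and 245 to 98 and 111 (-1.09, standard error 0.145). Of 6 genes of simple epithelium, 4 were tested, with summed levels of 121 and 116 at 6 h and 127 and 125 at 24 h. KRT7 rose (0.84, standard error 0.115), KRT19 fell (-1.59, standard error 0.198), and KRT8, the most abundant, was not called.

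Of 8 genes of fibroblasts and mesenchyme, 4 were tested, with summed levels of 2247 and 2107 CPM at 6 h and 1891 and 2075 at 24 h, nearly all of it VIM. PDGFRB (-1.48, standard error 0.129) and COL1A1 (-1.57, standard error 0.159) fell, LUM rose (0.75, standard error 0.220), and COL1A2 and COL3A1 had no count. Of 8 white blood cell genes, 2 were tested. CD14, the most abundant, rose from 47 and 41 counts to 85 and 91 (0.95, standard error 0.207), while the summed level was 2.63 and 2.50 CPM at 6 h and 3.74 and 3.79 at 24 h. The part of these genes in the tight junction values was not tested.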
